A study of Saccharomyces cerevisiae with 8 samples.

Results

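Messenger RNA of 39 genes of amino acid biosynthesis was followed in budding yeast (Saccharomyces cerevisiae) through a block of DNA replication and the recovery after it. The 39 genes were taken by name from the 6547 features of the deposited table, and all 39 were found and passed the filter on low values. They are the regulator GCN4 and the enzymes of 6 pathways, namely arginine (5 genes), histidine (4), the branched-chain amino acids (8), lysine (6), the aromatic amino acids (8) and the aspartate family (6), plus the serine gene SER1. HIS3 was left out because it is often used as a marker in strain construction. The 2 strains were one with the genotype mec1 (WFA73) and the wild type (WT, WFA72). Cells of each strain were held in G1 by alpha factor, a mating pheromone (G1), released for 1 h into 200 mM hydroxyurea (HU), and then filtered and grown without the drug for 30 min (R30) or 60 min (R60). Each strain was sampled 1 time at each of the 4 stages, so there are 8 libraries and no replicates. The allele carried by the mec1 strain is not given in the labels.

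Yeast cells make all the standard amino acids, and most of the enzymes of these pathways are under general amino acid control. In that system the kinase Gcn2 senses uncharged transfer RNA, translation of the GCN4 message rises, and the transcription factor Gcn4 binds promoters of biosynthetic genes at the sequence TGACTC. Single pathways have regulators of their own, such as Leu3 for leucine, isoleucine and valine genes and Lys14 for lysine genes, which respond to pathway intermediates. Mec1 is the kinase that starts the replication checkpoint, and hydroxyurea slows replication by inhibiting ribonucleotide reductase.

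The values are RPM, reads scaled to the total of their library, averaged over the windows that touch a gene, which include windows of its neighbours. The RPM scale of a library rests on at most 3935979 reads (mec1 G1) and at least 1596132 reads (WT HU), and the lowest mean number of reads per window of a member was 62.2. The mRNA of MEC1 itself had 77.1, 124, 83.9 and 76.6 RPM in mec1 cells at G1, HU, R30 and R60, against 36.2, 90.3, 35.7 and 38.7 RPM in WT cells, so the message was present in both strains (fitted mec1 minus WT difference 0.92 on the log2 scale, limma adjusted p = 0.0826). With the reads of neighbours separated, MEC1 had 131, 135, 119 and 124 RPM in mec1 cells, against 43.9, 40.2, 45.8 and 44.2 RPM in WT cells, without a peak in HU. The transcript of HUG1, an induced target of the Mec1 checkpoint, reached 7.67, 37.7, 38.6 and 22.2 RPM in mec1 cells over the same times, against 76.6, 445, 491 and 219 RPM in WT cells. The strain gap of HUG1 in G1 was much smaller once neighbours were separated, with 7.16 RPM in mec1 and 11.3 RPM in WT, whereas in HU separation left 37.7 RPM in mec1 and 558 RPM in WT. All 6 markers of a cells, the mating type that alpha factor arrests, were detected, and their summed level, after the reads of neighbours were separated, was 1165 to 7382 RPM in mec1 libraries and 1356 to 8444 RPM in WT libraries. The 4 markers of alpha cells summed to 79.4 to 252 RPM in mec1 and 80.0 to 110 RPM in WT. The 5 markers of meiosis summed to 99.2 to 116 RPM in mec1 and 82.0 to 133 RPM in WT. No marker on these 3 lists was at 0 in all libraries. All 6 a-cell markers fell in HU relative to G1, with a median fitted change of -2.26, and their part in the results on the members was not tested. In bulk RNA, fewer cells with a transcript and less RNA per cell cannot be told apart.

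Most members were at their lowest in G1 in both strains, and they reached their highest value at different times. In mec1 cells 26 of 39 members were highest at R60, as were 23.8% of all 6504 features tested. In WT cells 30 of 39 members were highest in HU, as were 28% of all features. G1 was the lowest of the 4 times for 32 members in mec1 cells (37.4% of all features) and for 36 members in WT cells (24.5%). On the scale log2(RPM + 1), the median change of the members between G1 and HU was 0.43 in mec1 and 0.67 in WT, while the median of all features was near 0 in mec1 and -0.05 in WT. Members higher by 1 or more in HU than in G1 were 5 of 39 in mec1 (4.7% of all features) and 11 of 39 in WT (4.5%). Between HU and R60 the median of the members was 0.40 in mec1 and -0.32 in WT, against 0.05 and 0.04 for all features. By R60 the members stood a median of 0.66 above G1 in mec1 and 0.39 above G1 in WT, and 15 of 39 were higher by 1 or more in mec1 (5.57% of all features) and 4 of 39 in WT (2.61%). These single-library differences have no replicate and were not tested.

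**Figure D1:**
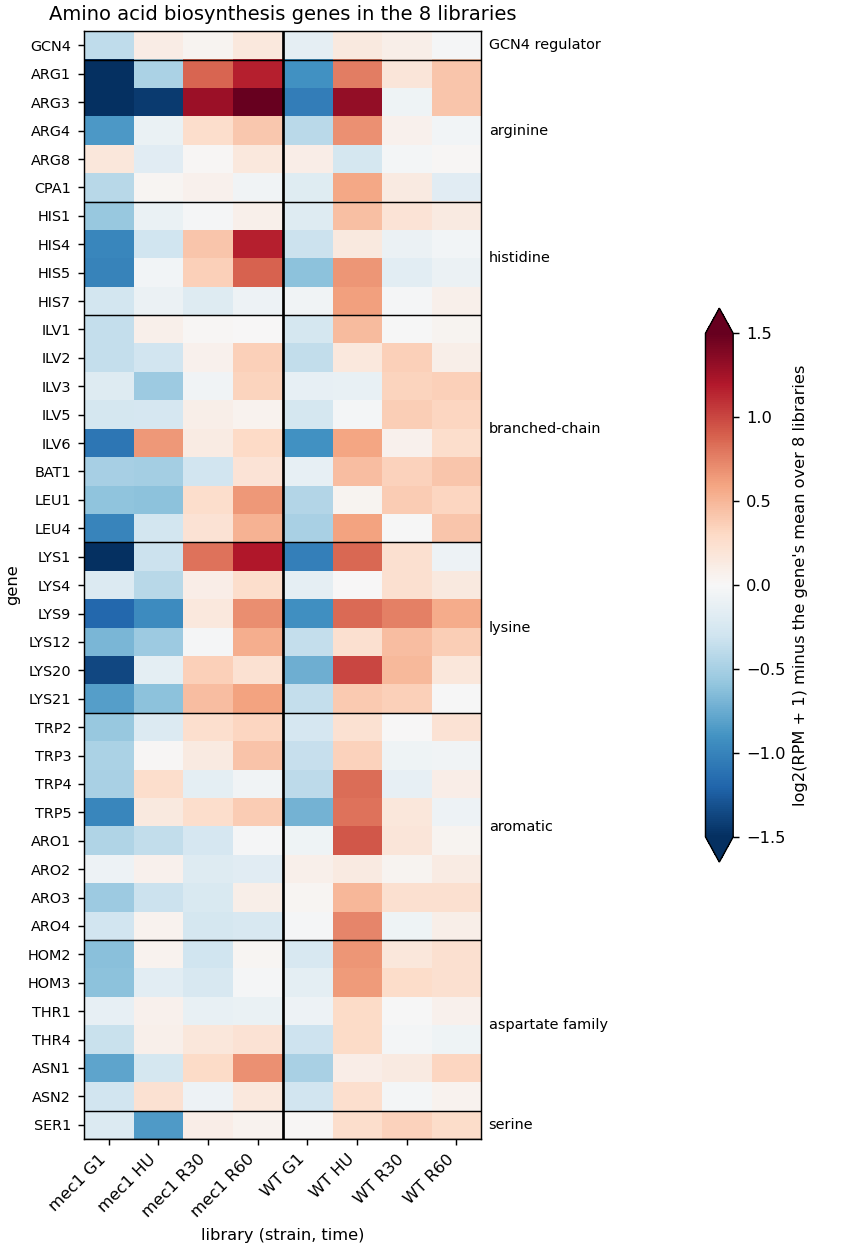
The colour of each cell is log2(RPM + 1) of 1 gene in 1 library minus that gene's mean over the 8 libraries, with mec1 libraries left of the black line and WT libraries right of it, and genes grouped by pathway. Red cells gather in the R60 column of mec1 and in the HU column of WT, where 26 and 30 of the 39 members had their highest value.

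Time effects shared by both strains were tested with limma on log2(RPM + 1), with strain and time as additive terms and Benjamini-Hochberg adjustment over all 6504 features. With 1 library per strain and time, the p-values weigh what both strains did alike against the unevenness between them over time, and the spread between cultures does not enter. In HU relative to G1, 8 of 39 members rose and 0 fell at an adjusted p under 0.05, where 4.57% of all features rose and 4.52% fell. The 8 were ILV6, LYS20, TRP5, TRP4, HOM2, HOM3, ILV1 and ASN2, and the median fitted change was 0.54 for the members and -0.02 for all features. At R60 relative to G1, ILV6 and ASN1 rose and no member fell, which is 2 of 39, where 0.661% of all features rose and 0.923% fell. The median of the members at R60 relative to G1 was 0.57, against 0.02 for all features. An unadjusted p under 0.05 was reached by 31 of 39 members and by 1285 of all 6504 features. In the limma fit no member was called between R30 and HU or between R60 and HU, where 0.861% and 0.953% of all features were called in either direction. Unadjusted p under 0.05 was reached there by 9 and 11 members, and by 1090 and 1093 of all 6504 features. In the fitted difference mec1 minus WT over the 4 times, 0 of 39 members were called and 0.277% of all features were. For this difference 9 of 39 members had an unadjusted p under 0.05, as did 1758 of all 6504 features. This fit averages over the times, so opposite strain differences, such as those of ARG3 (-2.76 in HU and 1.16 at R60), partly cancel. The 0 calls therefore do not show that the strains were alike at each time. Release from the pheromone and exposure to the drug happen together in the step between G1 and HU and cannot be told apart.

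The calls in HU changed when single libraries were left out and when the values were separated from those of neighbouring genes. The number of members called in HU relative to G1 was between 1 and 13 when 1 of the 8 libraries was left out, with 1 call without mec1 G1, WT G1 or WT HU, 2 without mec1 R30 or WT R30, 5 without mec1 R60 or WT R60, and 13 without mec1 HU. At R60 relative to G1 the count was 0 without WT R60, 4 without WT HU, 6 without mec1 HU and 1 without any of the other 5 libraries. When the reads of neighbours were separated from those of each gene, 3 members were called, namely ILV6, TRP5 and HOM2, where 2.37% of 5867 features rose. Among the calls that ended, ILV1, LYS20 and HOM3 kept their size, with fitted changes of 0.58, 1.53 and 0.63 after separation. As deposited these were 0.58, 1.48 and 0.63. The fitted change of TRP4 went from 0.99 to 0.56.

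The promoters of the members were searched for the sequences known for these regulators, in the 500 bases upstream of the start codon and on both strands, in the R64 genome and annotation. The Gcn4 core TGACTC, which reads GAGTCA on the other strand, was present in 30 of 39 members and in 12.7% of 6000 promoters. The longer TGACTCA, whose matches all contain TGACTC, was present in 25 members and in 4% of promoters. All 5 arginine, all 4 histidine and all 6 aspartate-family promoters held TGACTC, and so did 7 of 8 branched-chain, 5 of 8 aromatic and 2 of 6 lysine promoters and that of SER1. The 500 bases upstream of the GCN4 start codon held none, and bases farther upstream were not searched. GCN4 is therefore counted below among the 9 members without TGACTC. The Lys14 sequence TCCNNNGGA was found in 4 of 6 lysine promoters, in 6 of the 39 and in 5.9% of all promoters. The Leu3 sequence, CCGG and CCGG with NN between them, was found in 4 of 8 branched-chain promoters and in 0.267% of all promoters. A match is a description of the letters and not of binding. Between G1 and HU in mec1 cells, the 30 members with TGACTC had a median change of 0.45 and the 9 without it 0.23. In WT cells, the medians were 0.68 with TGACTC and 0.52 without it. Between G1 and R60 the order differed between the strains, with medians of 0.65 with TGACTC and 0.72 without it in mec1 cells, and of 0.43 and 0.35 in WT cells.

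Stretches of 30 bases around such matches are shown for the genes whose values are described next, to let the sites be compared between pathways. Each runs 5′ to 3′ on the strand of its gene, and capitals mark the match.
ILV6 (chrIII:105681-105710, minus strand): tcaccgttatcgTGACTCactttctttcgc
ARG1 (chrXV:218854-218883, plus strand): gtgattttttagTGACTCatgtcgcatttg
ARG3 (chrX:268473-268502, plus strand): agggtcacgtcgTGACTCatatgctttctt
HIS4 (chrIII:68515-68544, minus strand): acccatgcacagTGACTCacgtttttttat
HIS5 (chrIX:142714-142743, plus strand): tcttggatctgtTGACTCacttcaattgat
TRP4 (chrIV:1184570-1184599, plus strand): acctacgcagatTGACTCtctaaaaaatga
HOM2 (chrIV:770161-770190, plus strand): tcaagcattgatTGACTCattttcctctga
ASN1 (chrXVI:822381-822410, plus strand): tcatgtaacattTGACTCattctgtaaact
LYS1 (chrIX:420853-420882, minus strand): ttcagcgacaaaGAGTCAtaaagtcatcct
LYS1, Lys14 sequence (chrIX:420913-420942, minus strand): atttttttttTCCAGCGGAatttggaattc
LYS9, Lys14 sequence (chrXIV:715532-715561, minus strand): attgagaattTCCAATGGAattatcagcaa
BAT1, Leu3 sequence (chrVIII:517375-517404, plus strand): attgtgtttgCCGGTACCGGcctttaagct
LEU1, Leu3 sequence (chrVII:478850-478879, minus strand): aacgaaaattCCGGGACCGGcgaaatttgc
In HIS4 and HIS5 the TGACTC shown is the nearest of 3 to the start codon, and in ARG1, ARG3 and LYS1 it is 1 of 2. The LYS9 promoter holds TCCNNNGGA in 2 places and no TGACTC.

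GCN4, which encodes the transcriptional activator of general control, kept a nearly level mRNA amount after G1. It had 428, 604, 572 and 624 RPM in mec1 cells at G1, HU, R30 and R60, against 509, 616, 592 and 549.9 RPM in WT cells. The fitted change in HU relative to G1 was 0.39 ± 0.13 (SE) and was not called (limma adjusted p = 0.107). Per length and after separation of neighbours, GCN4 averaged 2371 RPM per kb over the 8 libraries. Gcn4 is controlled mainly at translation, which mRNA levels do not measure.

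ARG1 and ARG3 had a wider log2 range over the 8 libraries than any other member. ARG1, which makes argininosuccinate, had 127, 379, 965 and 1184 RPM in mec1 cells at G1, HU, R30 and R60, against 280.0, 898, 595 and 704 RPM in WT cells. The mec1 values were higher at each later time, and the WT series was highest in HU. ARG3, the ornithine carbamoyltransferase, had 15.8, 24.8, 168 and 207 RPM in mec1 cells, against 32.9, 173, 65.6 and 91.9 RPM in WT cells. In HU, ARG3 was lower in mec1 than in WT by a log2 difference of -2.76 (95% counting interval -3.14 to -2.37), and at R60 it was higher by 1.16 (0.97 to 1.36). ARG4, the argininosuccinate lyase, had 269, 458, 587 and 648 RPM in mec1 cells, against 369, 786, 512 and 478 RPM in WT cells. CPA1, the small subunit of the arginine-specific carbamoyl-phosphate synthase, had 281, 384, 391 and 363 RPM in mec1 cells, against 331, 563, 412 and 334 RPM in WT cells.

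None of the 5 arginine genes was called in a shared time effect by limma with Benjamini-Hochberg adjustment. Their median fitted change in HU relative to G1 was 0.93. There 4 of them had an unadjusted p under 0.05, as did 2027 of all 6504 features. ARG8, which fell as deposited, was 1 of these 4. With neighbours separated, 3 arginine genes had an unadjusted p under 0.05, as did 1616 of 5867 features. For ARG1 the fitted change was 1.62 ± 0.53 (SE, adjusted p = 0.0947), and for ARG3 it was 1.49 ± 0.92 (SE, adjusted p = 0.318). The deposited values of ARG8, the mitochondrial acetylornithine aminotransferase, mostly belong to another gene. CDC33, which encodes a translation initiation factor, made up 82.9% of the reads summed over its windows and ARG8 itself 16.0%. ARG8 as deposited had 207, 162, 185 and 204 RPM in mec1 cells, against 197, 152, 179 and 186 RPM in WT cells, with a fitted change of -0.36 ± 0.11 (SE) in HU that was not called. After separation the fitted change was 0.16, in the other direction, and was not called either. It averages opposite changes, -0.23 in mec1 and 0.54 in WT.

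**Figure D2:**
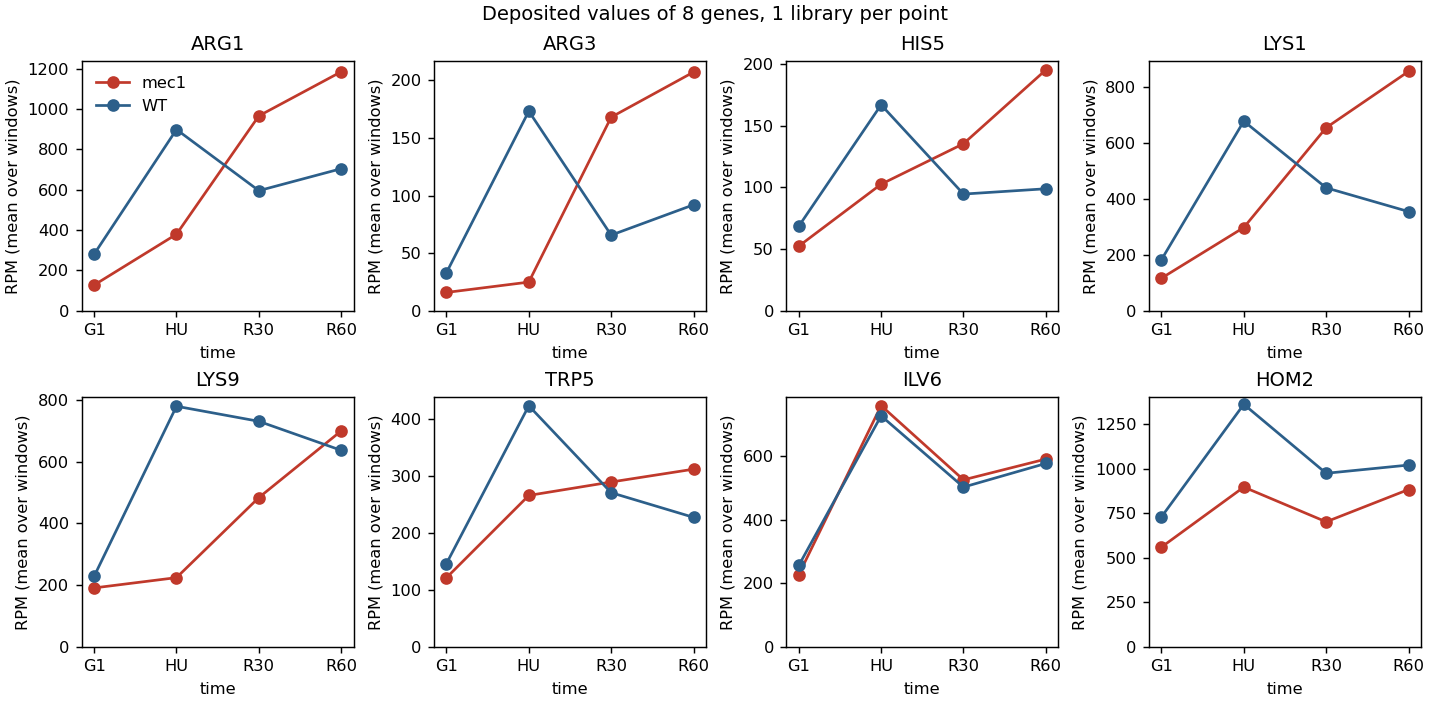
Deposited RPM of 8 members is plotted against time, with 1 library per point, mec1 in red and WT in blue, and each vertical axis starting at 0. ARG1, ARG3, HIS5 and LYS1 lie lower in mec1 than in WT in HU and higher at R30 and R60, whereas the ILV6 curves of the 2 strains lie close together at all 4 times and HOM2 is lower in mec1 at all 4.

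All 4 histidine genes were highest at R60 in mec1 cells and in HU in WT cells. HIS4, a protein that catalyses several steps of the pathway, had 83.2, 134, 222 and 372 RPM in mec1 cells, against 132, 183, 155 and 160.1 RPM in WT cells. The mec1 and WT values cross between HU and R30. HIS5, the histidinol-phosphate aminotransferase, had 52.3, 103, 135 and 195 RPM in mec1 cells, against 68.5, 167, 94.6 and 98.9 RPM in WT cells. Its change between HU and R60 was 0.92 (counting interval 0.72 to 1.12) in mec1 and -0.75 (-0.99 to -0.51) in WT. HIS1, the ATP phosphoribosyltransferase of the first step, stayed lower in mec1 at all 4 times, with 207, 288, 305 and 324 RPM, against 270.2, 424, 356 and 340.0 RPM in WT. At R60 the strain difference of HIS1 was within counting error, at -0.07 (-0.19 to 0.05).

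HIS7, the imidazole glycerol phosphate synthase, had 234, 267, 249 and 270.1 RPM in mec1 cells, against 274, 437, 281 and 300.3 RPM in WT cells. Its windows are shared with ARO4, another member, which supplied 64.8% of the summed reads, so these 2 genes are not separate observations as deposited. No histidine gene was called by limma in any of the 5 comparisons. In HU relative to G1, 3 of the 4 had an unadjusted p under 0.05, as did 2027 of all 6504 features. The fitted change of HIS5 in HU relative to G1 was 1.12 ± 0.38 (SE, limma with Benjamini-Hochberg adjusted p = 0.104).

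Of the 8 branched-chain genes, 7 had a positive fitted change in HU relative to G1, and limma called 2 of them, ILV6 and ILV1. ILV6, the regulatory subunit of acetolactate synthase, had 227, 759.8, 526 and 591 RPM in mec1 cells, against 256, 728, 503 and 578 RPM in WT cells. The strains differed by at most 0.17 on the log2 scale at any time. Its fitted change was 1.62 ± 0.12 (SE, limma with Benjamini-Hochberg adjusted p = 0.00160) in HU and 1.27 ± 0.12 (adjusted p = 0.00634) at R60, both relative to G1. ILV6 was called in HU under all 17 alternatives that were run, and at R60 under 16 of 17, the exception being the fit without the WT R60 library (adjusted p = 0.0564). ILV1, the threonine deaminase at the head of isoleucine synthesis, had 261, 353, 338 and 336 RPM in mec1 cells, against 278, 462, 331 and 344 RPM in WT cells. Its fitted change in HU was 0.58 ± 0.14 (SE, limma adjusted p = 0.0470), and 11 of 17 alternatives ended that call.

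ILV2, the catalytic subunit that ILV6 regulates, had a smaller range than ILV6, with 344, 361, 461 and 566 RPM in mec1 cells against 343, 492, 566 and 469 RPM in WT cells. ILV3, the dihydroxyacid dehydratase, was lower in HU than in G1 in mec1 by -0.35 (counting interval -0.46 to -0.25) and differed by 0.02 (-0.11 to 0.14) in WT. It had 502, 393, 554 and 728 RPM in mec1 cells, against 527, 534, 722 and 739.7 RPM in WT cells. BAT1, the mitochondrial branched-chain aminotransferase, had 570.4, 566, 660.2 and 929 RPM in mec1 cells, against 742, 1111, 1030.1 and 1074 RPM in WT cells. BAT1 was lower in mec1 at all 4 times, with a fitted difference of -0.55 ± 0.13 (SE) that was not called (limma adjusted p = 0.0996).

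The leucine enzymes were above their G1 values at R30 and R60 in both strains. LEU1, the isopropylmalate isomerase, had 826, 820.0, 1508 and 1974 RPM in mec1 cells, against 922, 1293, 1629.6 and 1564 RPM in WT cells. LEU4, the main isopropylmalate synthase, had 191, 313, 440.2 and 547 RPM in mec1 cells, against 270.2, 579, 379 and 508 RPM in WT cells. ILV5, the reductoisomerase, had 721, 727, 920.0 and 899 RPM in mec1 cells, against 721, 849.7, 1123 and 1087 RPM in WT cells. In HU relative to G1 these 3 genes had smaller differences in mec1 than in WT, and none was called by limma in any comparison. The 4 promoters with the Leu3 sequence, those of ILV2, ILV5, BAT1 and LEU1, belong to genes whose fitted changes in HU were 0.29, 0.12, 0.28 and 0.24, none of them called.

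Lysine genes showed the largest strain difference in HU among the 6 pathways, with a median of -1.09 for mec1 minus WT. LYS1, which carries out the last step of lysine synthesis, had 116, 298, 655 and 857 RPM in mec1 cells, against 182, 678, 439.7 and 355 RPM in WT cells. Its difference between mec1 and WT was -1.19 (counting interval -1.32 to -1.05) in HU and 1.27 (1.17 to 1.37) at R60. LYS9, the saccharopine-forming enzyme one step earlier, had 191, 224, 483 and 699.7 RPM in mec1 cells, against 228, 779.5, 731 and 637 RPM in WT cells. In mec1 cells LYS9 stood 0.23 (0.08 to 0.39) above G1 in HU and 1.87 (1.75 to 1.99) above G1 at R60, while in WT cells it was highest in HU. LYS20, a homocitrate synthase at the entry of the pathway, had 167, 389, 555 and 507 RPM in mec1 cells, against 259, 869.8, 608 and 487 RPM in WT cells. In HU relative to G1, 5 of the 6 lysine genes had a positive fitted change, and LYS20 was the 1 called. Its change was 1.48 ± 0.28 (SE, limma with Benjamini-Hochberg adjusted p = 0.0265), and 7 of 17 alternatives ended that call. LYS1 had a larger fitted change, 1.62, that was not called.

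The second homocitrate synthase gene, LYS21, had 84.4, 179 and 198 RPM in mec1 cells at HU, R30 and R60, against 171, 168 and 129.9 RPM in WT cells, and was lowest in G1 in both strains. LYS12, the homoisocitrate dehydrogenase, had 213, 235, 339 and 501 RPM in mec1 cells, against 269, 405, 473 and 443 RPM in WT cells. LYS4, the homoaconitase, had 204, 177, 251 and 283 RPM in mec1 cells, against 214, 236, 279 and 259.7 RPM in WT cells. All 6 lysine genes were lower in mec1 than in WT in HU (42.7% of all features), and all 6 were higher in mec1 at R60 (61% of all features). The gap at R60 was narrow for LYS20 (507 against 487 RPM), LYS4 (283 against 259.7 RPM) and LYS9 (699.7 against 637 RPM). LYS4 had a fitted change of -0.03 in HU that was 0.11 after separation of neighbours, since RTN1 supplied 27.4% of the reads in its windows, and neither value was called.

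Every one of the 8 aromatic genes was highest in HU in WT cells. TRP5, the tryptophan synthase, had 121, 266, 289.9 and 312 RPM in mec1 cells, against 146, 424, 271 and 228 RPM in WT cells. It rose in HU relative to G1 by 1.33 ± 0.25 (SE, limma with Benjamini-Hochberg adjusted p = 0.0268), a call that 5 of 17 alternatives ended. TRP4, the anthranilate phosphoribosyltransferase, had 156, 265, 199 and 212 RPM in mec1 cells, against 168, 394, 202 and 237 RPM in WT cells. TRP4 rose by 0.99 ± 0.16 (SE, limma adjusted p = 0.0183), but its neighbours TRR1 and YDR354C-A held 30.1% and 13.5% of its summed reads. After separation the fitted change of TRP4 was 0.56 (adjusted p = 0.264) and the call ended.

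ARO1, the multifunctional enzyme of the shikimate steps, had 66.6, 70.6, 76.9 and 90.8 RPM in mec1 cells, against 88.0, 176, 104 and 94.7 RPM in WT cells. In HU it was lower in mec1 than in WT by a log2 difference of -1.31 (counting interval -1.57 to -1.04), and at R60 by -0.06 (-0.29 to 0.17). ARO4, a synthase of the first shared step, had 562, 707, 570.0 and 578 RPM in mec1 cells, against 675, 1141, 655 and 725 RPM in WT cells. ARO3, the other synthase of that step, had 217, 254, 269 and 337 RPM in mec1 cells, against 323, 447, 375 and 376 RPM in WT cells. Both stayed lower in mec1 at all 4 times. ARO2, the chorismate synthase, had 547, 600.2, 504 and 510.4 RPM in mec1 cells, against 608, 633, 589.7 and 626 RPM in WT cells, with RPL9A holding 32.8% of its summed reads. TRP2 and TRP3, which together form anthranilate synthase, differed by 0.10 and 0.48 between mec1 and WT at R60, and neither was called in any comparison.

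The aspartate family held 3 of the 8 members called in HU. HOM2, the aspartate semialdehyde dehydrogenase, had 559, 896, 701 and 883 RPM in mec1 cells, against 729, 1361, 974 and 1020.2 RPM in WT cells. As deposited, HOM2 was highest in HU in both strains and lower in mec1 at all 4 times. With neighbours separated, its mec1 value was 1597 RPM in HU and 1619 RPM at R60, so its highest time in mec1 changed. Its fitted change in HU relative to G1 was 0.79 ± 0.13 (SE, limma with Benjamini-Hochberg adjusted p = 0.0195). HOM3, the aspartate kinase of the first step, had 191, 262, 248 and 289.8 RPM in mec1 cells, against 263, 457, 355 and 346 RPM in WT cells. It rose by 0.63 ± 0.15 (SE, limma adjusted p = 0.0491) in HU, and its fitted strain difference was -0.51 ± 0.11 (SE, adjusted p = 0.0996), not called.

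The asparagine synthetase genes ASN1 and ASN2 were highest at different times. ASN2 had 401, 572, 465 and 545 RPM in mec1 cells, against 400.5, 583, 478 and 509.6 RPM in WT cells, and rose in HU relative to G1 by 0.53 ± 0.11 (SE, limma adjusted p = 0.0352). ASN1 had 394, 572, 836 and 1103 RPM in mec1 cells, against 486, 734, 753 and 856 RPM in WT cells. It was highest at R60 in both strains and rose at R60 relative to G1 by 1.15 ± 0.20 (SE, limma adjusted p = 0.0451). The calls of HOM3 and ASN2 ended under 12 of 17 alternatives each, that of HOM2 under 6 and that of ASN1 under 9. THR1, the homoserine kinase, had 303, 344, 305 and 307 RPM in mec1 cells, against 314, 402, 329 and 346 RPM in WT cells. THR1 and THR4, the enzymes that turn homoserine into threonine, were lower in mec1 than in WT in HU by -0.23 (counting interval -0.37 to -0.08) and -0.21, and neither was called in any comparison. PPA1 held 26.3% of the reads summed over the windows of THR1.

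SER1, the phosphoserine aminotransferase, was lower in HU than in G1 in mec1 and higher in WT, each by more than its counting interval. It had 174, 110.4, 214 and 208 RPM in mec1 cells, against 202, 242, 256 and 242 RPM in WT cells. The change between G1 and HU was -0.65 (counting interval -0.85 to -0.46) in mec1 and 0.25 (0.06 to 0.45) in WT. RPS30B, a ribosomal protein gene, held 17.8% of its summed reads, and after separation the changes were -0.72 in mec1 and 0.38 in WT.

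Set side by side, the pathways differed in how far they moved and when. In HU relative to G1 the median change in mec1 was 0.62 for arginine, 0.58 for histidine, 0.04 for branched-chain, 0.22 for lysine, 0.35 for aromatic and 0.48 for aspartate-family genes. In WT the same medians were 1.09, 0.66, 0.55, 1.25, 0.73 and 0.59. At R60 relative to G1 the medians in mec1 were 1.27 for arginine, 1.26 for histidine, 0.71 for branched-chain, 1.51 for lysine, 0.54 for aromatic and 0.57 for aspartate-family genes. In WT they were 0.37, 0.30, 0.56, 0.81, 0.26 and 0.37. Lysine, arginine and histidine had the highest medians in mec1 at R60, and lysine and arginine the highest in WT in HU. The branched-chain median of WT was nearly the same in HU and at R60. Genes of a pathway are not replicates, and no pathway was tested against another.

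**Figure D3:**
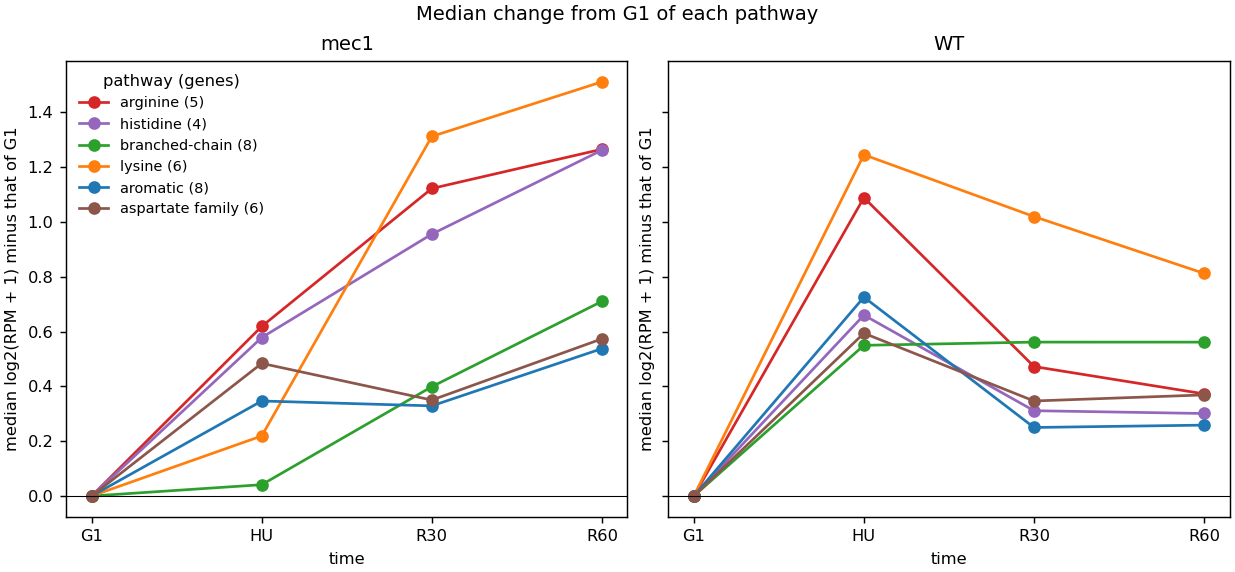
Each line is the median over the genes of 1 pathway of log2(RPM + 1) minus that of G1 in the same strain, for mec1 (left) and WT (right), with the number of genes in the legend. In mec1 the lysine and arginine lines stand at 0.22 and 0.62 in HU and at 1.51 and 1.27 at R60, and in WT they peak in HU at 1.25 and 1.09.

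The strains were also compared directly at each time, and the members differed most in HU. In HU, 37 of 39 members were lower in mec1 than in WT (42.7% of all features), with a median of -0.60 for the members and 0.06 for all features. By a log2 difference of 1 or more, 8 members were lower and 0 higher, where 1.51% of all features were lower by that much and 5.18% higher. The 8 were ARG1, ARG3, LYS1, LYS9, LYS20, LYS21, ARO1 and SER1. In G1, 36 of 39 members were lower in mec1 (37.2% of all features), with a median of -0.26, and ARG1 (-1.14) and ARG3 (-1.01) were lower by 1 or more (0.231% of all features). At R30 the median was -0.07, and ARG3 (1.34) was the 1 member higher in mec1 by 1 or more (3.97% of all features). At R60, 24 of 39 members were higher in mec1 (61% of all features), with a median of 0.11 and 0.10 for all features, and HIS4 (1.21), ARG3 and LYS1 were higher by 1 or more (3.51%). A share of 24 of 39 is near that of all features, so the count at R60 shows nothing about the members.

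The response of each strain was also compared. Between G1 and HU the change in mec1 was below that in WT for 34 of 39 members (49.2% of all features), with a median difference of -0.32. Between HU and R60 the change in mec1 was above that in WT for 36 of 39 members (49.3% of all features), with a median difference of 0.67. Of these, 22 members went up in mec1 and down in WT (21.3% of all features). The members outside this pattern, with a change in mec1 at or below that of WT, were ILV5, ILV6 and ARO2. Both steps use the same HU libraries, so they are not independent of each other, and none of these differences between strains was tested.

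**Figure D4:**
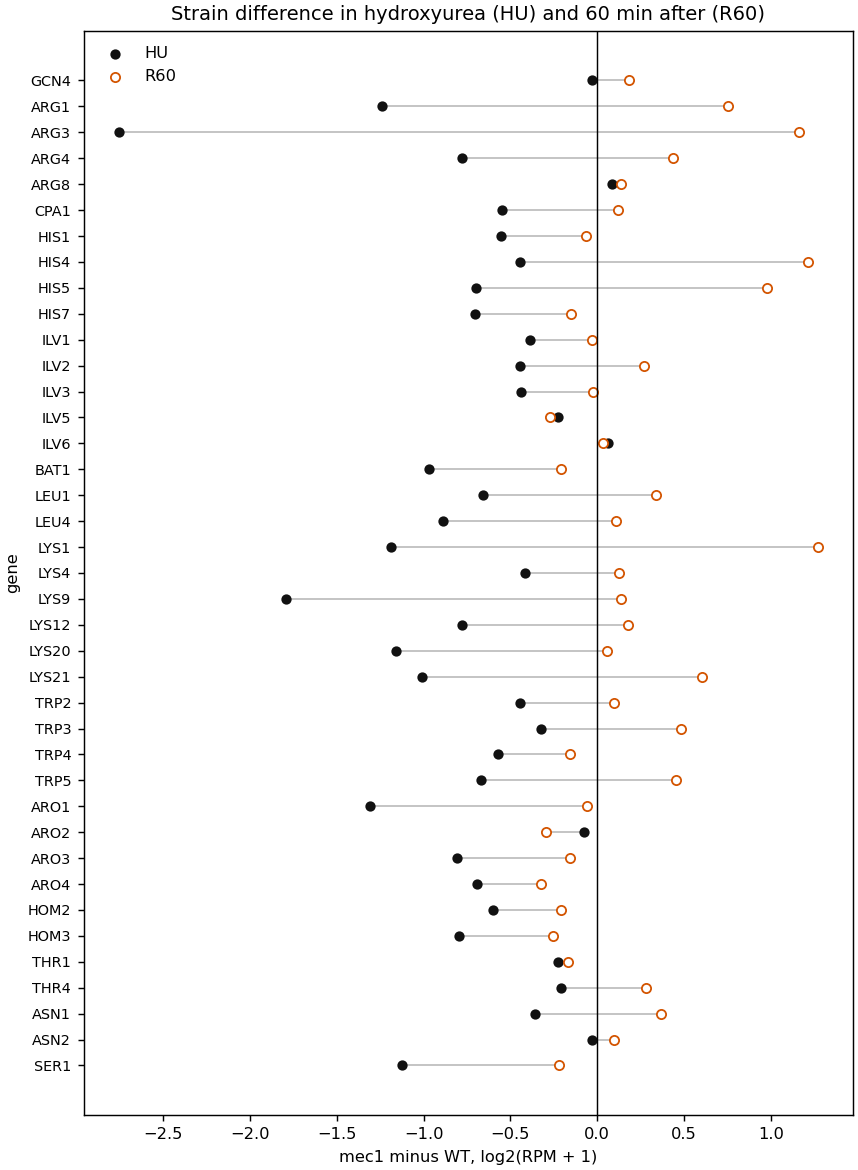
For each member, the filled point is mec1 minus WT in HU and the open point is mec1 minus WT at R60, in log2(RPM + 1), joined by a line. In HU 37 of 39 points lie left of 0, the farthest being ARG3 at -2.76, and at R60 the points spread between -0.33 and 1.27.

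Levels can be compared between genes only per length and after the neighbours are separated. On that scale, GCN4 (2371), BAT1 (2248), ILV5 (2159), LEU1 (1645) and ARO4 (1599.5) had the highest mean RPM per kb over the 8 libraries. ARG8 (54.5), ARO1 (67.2), HIS7 (152), HIS5 (189) and HIS4 (191) had the lowest. The length used is that of the feature (846 bases for GCN4), without untranslated ends of the message. How those ends affect the order was not tested. The means also pool libraries in which the order differs. In WT cells BAT1 was above GCN4 in HU (2991 against 2601), at R30 (2778 against 2500) and at R60 (2896 against 2319), and ILV5 was above GCN4 at R30 (2855) and R60 (2752). In mec1 G1 the lowest level was that of ARG3 (22.4), below ARG8 (37.4). ARG1 had 220.3, 751, 2071 and 2565 RPM per kb in mec1 cells, against 565, 1907, 1261 and 1516 RPM per kb in WT cells.

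Further genes of amino acid metabolism, which are not among the 39, were taken from the same fit. In HU relative to G1, 9.09% of all features were called in either direction. Of 17 other enzymes of these pathways, 2 were called in HU relative to G1, both higher, SER2 of serine synthesis among them. SER2 rose as deposited (limma adjusted p = 0.0126), but its fitted change after separation of neighbours was -2.08 and not called (adjusted p = 0.111), so its direction depends on them. Among 10 regulators of single pathways, LEU3 fell in HU by 1.47 on the log2 scale (SE 0.12, limma adjusted p = 0.00272) and LYS14 rose by 1.39 (SE 0.25, adjusted p = 0.0253). LEU3 had 102, 37.1, 39.9 and 45.3 RPM in mec1 cells, against 99.4, 34.2, 39.1 and 42.2 RPM in WT cells, and thus was close between the strains at all 4 times. LYS14 had 42.3, 109, 152 and 142 RPM in mec1 cells, against 51.3, 140.2, 387 and 206 RPM in WT cells, and after separation its change was 0.76 (adjusted p = 0.0891) and not called.

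Of 11 genes that act upstream of Gcn4 in general control, none was called in HU by limma, with a median change of -0.24. An unadjusted p under 0.05 was reached by 3 of the 11 and by 2027 of all 6504 features. GCN1 fell by 0.70 at R60 relative to G1 (limma adjusted p = 0.0425), a call that ended with neighbours separated (adjusted p = 0.0641). Among 10 genes for glycine, glutamate, glutamine and proline, GLY1 rose in HU by 0.53 (adjusted p = 0.0368) and GDH1 rose at R60 relative to G1 by 0.78 (adjusted p = 0.0300). With neighbours separated both calls ended, at adjusted p = 0.0670 for GLY1 and 0.0651 for GDH1. Of 14 amino acid permeases, 1 feature was called in HU, that of the histidine permease HIP1 (0.61, limma adjusted p = 0.0370). Separation assigned all reads in its windows to neighbours and left HIP1 at 0 in all 8 libraries, so this value cannot be credited to HIP1. Of the 13 permeases tested after separation, limma called 0 in HU, and 3 had an unadjusted p under 0.05, as did 1616 of 5867 features. Of 11 genes of amino acid breakdown, GDH2 and PUT2 rose in HU by 0.90 (adjusted p = 0.0339) and 0.54 (adjusted p = 0.0414). With neighbours separated, 3 of these 11 were called higher in HU, where 2.37% of 5867 features rose. The 3 tested genes of Gcn4 turnover gave 0 calls in HU by limma, and none had an unadjusted p under 0.05.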

How the data were processed

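The libraries were stranded mRNA libraries, read as pairs on a MiSeq, per the labels. The submitters' processing notes name BWA and sacCer3, and the version of BWA is not given in the sources used here. Though the deposited table is titled log2 RPKM, its values are neither logged nor divided by length, and they are read here as RPM averaged by the authors over windows. Each feature had a body window and 1000 bp flanks, and the mean runs over all windows that touch it. The number of windows predicted in this way matched the deposited number for 6326 of 6547 features (96.6%) and for all 39 members, which had 3 to 9. The deposited columns of standard deviation over windows, of another unit, served to check the separation of neighbours.

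Values were put on the scale log2(RPM + 1), and a feature needed 1 RPM in at least 2 libraries to be tested (6504 tested, 43 removed). Strain and time were additive terms of one limma model (limma 3.58.1, R 4.3.3). The prior variance depended on the mean, there were 3 degrees of freedom left over and 3.82 from the prior, with two-sided Benjamini-Hochberg adjusted p-values called under 0.05. The fit was tested on simulated data. In the separated values, body reads per gene were solved by non-negative least squares (SciPy 1.17.1), with reads taken to lie evenly along a gene. The predicted and deposited standard deviations over windows had a correlation of 0.990 over the members and 0.934 over all features, across genes that are not independent. For some genes outside the members the solution gave 0, for HIS6 and HIP1 in all 8 libraries and for GCN20 in WT R30 alone. Counting intervals are 95% intervals from mean reads per window and cover counting error only. Their half-width was at most 0.495 (ARG3) and 0.295 for the other members. Window coordinates equal those of the R64 annotation for 966 of 5814 matched features, so promoters were taken from R64 alone.

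The members and all gene lists were chosen with earlier results of these data known. Named with all values were GCN4, every member called in a comparison and, in each pathway, the members with the highest and lowest change in HU and the largest strain difference. Further members were named for completeness, and other genes where called. One gene outside the 39 members that was called is not reported here.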

Additional observations from a re-analysis of the deposited data

Results flagged for a closer look

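In 10 cases a named member moved in opposite directions in the 2 strains, each by more than its counting interval, and none of these differences was tested. Between HU and R60, 9 of the 24 members named by rule went up in mec1 and down in WT beyond those intervals. The 24 were chosen in part for extreme changes and large strain differences, and the share of all features that do so was not computed, so this count is a description only. The change in mec1 minus the change in WT was 1.99 for ARG1, 3.92 for ARG3, 1.67 for HIS5, 2.46 for LYS1, 1.93 for LYS9, 1.22 for LYS20, 1.12 for TRP5, 1.25 for ARO1 and 0.54 for HOM3. All 9 kept both directions after the reads of neighbours were separated. For ARG3 the separated changes were 3.23 in mec1 and -0.95 in WT, and for LYS1 they were 1.61 and -0.98. Between G1 and HU, SER1 alone among the 24 went down in mec1 and up in WT by more than its counting intervals, with a difference of -0.91.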

How the results depend on the processing

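There were 17 alternatives for each time comparison and 15 for the strains. Without the mean-dependent prior, 5 members were called in HU relative to G1 and 1 at R60 relative to G1. With neighbours separated these counts were 3 and 1, and without a strain term 2 and 1. With the compared times only, 7 were called at R60. Leaving out 1 library gave 1 to 13 calls in HU and 0 to 6 at R60. It also gave medians of 0.33 to 0.76 in HU relative to G1, 0.37 to 0.71 at R60 relative to G1, -0.30 to 0.29 for R30 minus HU and -0.17 to 0.31 for R60 minus HU. The sign of the R30 median turned without WT HU (0.29) or WT R30 (0.07), and that of the R60 minus HU median without mec1 HU (-0.16) or mec1 R60 (-0.17). In HU relative to G1, ARG8 turned to 0.16 and LYS4 to 0.11 with neighbours separated. LYS4 turned to 0.0022 without mec1 G1 and to 0.16 without mec1 HU (range -0.23 to 0.16), and SER1 to 0.25 without mec1 HU (range -0.65 to 0.25). For mec1 minus WT, GCN4 turned to 0.084 under quantile normalization and to 0.035 without the G1 library of either strain, and ARG3 to 0.50 without the HU library of either strain (range -0.87 to 0.50). The cause was not tested. Median centring and quantile normalization moved the median of all features in mec1 minus WT by -0.12 and -0.11, and the members then lay -0.27 and -0.08 from that median. Of 477 values of single genes under alternatives, 394 kept direction and side of the threshold, 69 lost a call, 4 gained one and 10 turned sign. In alternatives added after seeing the data (2 scalings and separated neighbours), 24 to 29 members were highest at R60 in mec1, 29 to 31 highest in HU in WT, and 34 to 39 lower in mec1 than in WT in HU. Each strain and time has 1 library, so no replicate numbers link the libraries. In the time comparisons the strain term matches times within a strain, and in mec1 minus WT the time term matches the strains. The fit without a strain term, run for the time comparisons only, drops the matching of times within a strain. Depth limits ARG3 most, with 62.2 mean reads per window in its lowest library.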

Other observations

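HIS3, kept apart from the members because it often serves as a marker in strain construction, had 293, 474, 569.6 and 651 RPM in mec1 cells at G1, HU, R30 and R60, against 132, 169, 143 and 151 RPM in WT cells. Its fitted strain difference was 1.68 ± 0.17 (SE, limma with Benjamini-Hochberg adjusted p = 0.0104), higher in mec1 at all 4 times, while no histidine gene among the members was called. Whether HIS3 marks the mec1 strain is not given in the labels.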
